A study of Mus musculus with 10 samples.

Results

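The endothelin and natriuretic peptide system was taken here as 10 genes: the endothelins Edn1, Edn2 and Edn3, their receptors Ednra and Ednrb, the endothelin-converting enzyme Ece1, the C-type natriuretic peptide gene Nppc, and the natriuretic peptide receptors Npr1, Npr2 and Npr3. A listed gene was included when its name was given to a non-control spot of the arrays. No measured value entered that rule, but the list was drawn up with earlier results of these data known. All 10 were found among 35527 gene names, on 11 of 55681 probes, Ednrb having 2 probes and every other gene 1. Signal was high enough for testing in 7 of them, among 22520 gene names tested.

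Gene expression was compared between infrarenal aortas of 5 sham and 5 PPE mice. All were male C57BL/6J mice of 10 weeks on a normal diet. In the PPE group, the segment was infused for 5 min at 100 mmHg with type I porcine pancreatic elastase (PPE) at 1.5 U per mL in saline, which starts an abdominal aortic aneurysm (AAA). Sham mice had the same surgery and were infused with saline alone, so both groups share the surgical injury, and the aortas were taken 7 days later. Each array carried 500 ng of RNA from 1 aorta in the red channel (Cy5) and a universal mouse reference RNA in the green channel (Cy3). A value is a log2 ratio of aorta over reference, and a difference is PPE minus sham on that scale. The arrays lay on 5 slides: sham 1 shared slide 1 with PPE 1 and 2, sham 2 and 3 shared slide 2 with PPE 3 and 4, and sham 4, sham 5 and PPE 5 were each on a slide of their own. Slide 1 was scanned on a different day from the other slides.

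Endothelins are short vasoconstrictor peptides, made mainly by endothelium from a larger precursor that endothelin-converting enzyme cleaves. On vascular smooth muscle, the receptor encoded by Ednra raises calcium and drives contraction. The receptor encoded by Ednrb also acts on endothelium, where it releases nitric oxide and clears endothelin. Natriuretic peptides oppose this constriction: Npr1 (for the atrial and brain peptides) and Npr2 (for the C-type peptide) are guanylyl cyclases that make cyclic GMP, and Npr3 mainly takes the peptides up and removes them.

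The probes are shown because each gene except Ednrb rests on a single oligonucleotide of 60 bases, so a value speaks for transcripts that carry that stretch. The 30 bases at the 5′ end of each are given as the array files list them, all in lower case since no position is singled out. All 11 probe accessions matched the same gene symbol in RefSeq (GRCm38.p6).
Edn1: cagtaaaaatatgttcccgtatgtattgta
Edn2: aggacacaattacctaagccacacctggag
Edn3: cactcaggagataagtcaaatgcataataa
Ece1: aaaggcagagtaatgaccttcatatcacgt
Ednra: ggccctggtaactctactgggcattttccc
Ednrb, brighter probe: aaggacgccccagatcttcaattttaagtt
Ednrb, other probe: tataccctgatgacctgcgaaatgctcagg
Nppc: gacaaaaccagctagctgtaaaacattgct
Npr1: acctgttttgatgctgtcatagacaacttt
Npr2: ctggtcctcttcctgcctcctgtaaatatc
Npr3: aaacgtaccatgaatctggtagaagagtcc

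On the mm9 build used in the files, the probes lie at chr13:42403101-42403160 for Edn1, chr4:119839682-119839741 for Edn2, chr2:174608971-174609030 for Edn3 and chr4:137519606-137519665 for Ece1. Those of the endothelin receptors lie at chr8:80186985-80187044 for Ednra, and at chr14:104214484-104214543 and chr14:104220870-104220929 for the brighter and the other Ednrb probe. On the natriuretic side they lie at chr1:88563020-88563079 for Nppc, chr3:90259171-90259664 for Npr1, chr4:43664035-43664094 for Npr2 and chr15:11769937-11769996 for Npr3. Exon and UTR annotation on this build was not used here.

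At 7 days after PPE, the natriuretic receptors Npr2 and Npr3 fell, by 0.93 and 1.07 on the log2 scale (1.91-fold and 2.10-fold). Npr1 had a difference of -0.97 and the ligand Edn1 one of 0.79, neither of which passed the threshold of an adjusted p of 0.01. The endothelin receptors and the converting enzyme did not pass it either. So 0 of the 7 tested genes were called higher and 2 lower in limma, where 13.8% of all tested names (3116) were called higher and 9.96% (2243) lower. With the arrays centred on the median in place of loess, 408 names were called higher and 8 lower. The groups did not overlap for the same 2 genes, a state shared by 25.5% of all tested names. The median difference was 0.15 over the 7 genes and 0.02 over all tested names.

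**Figure D1:**
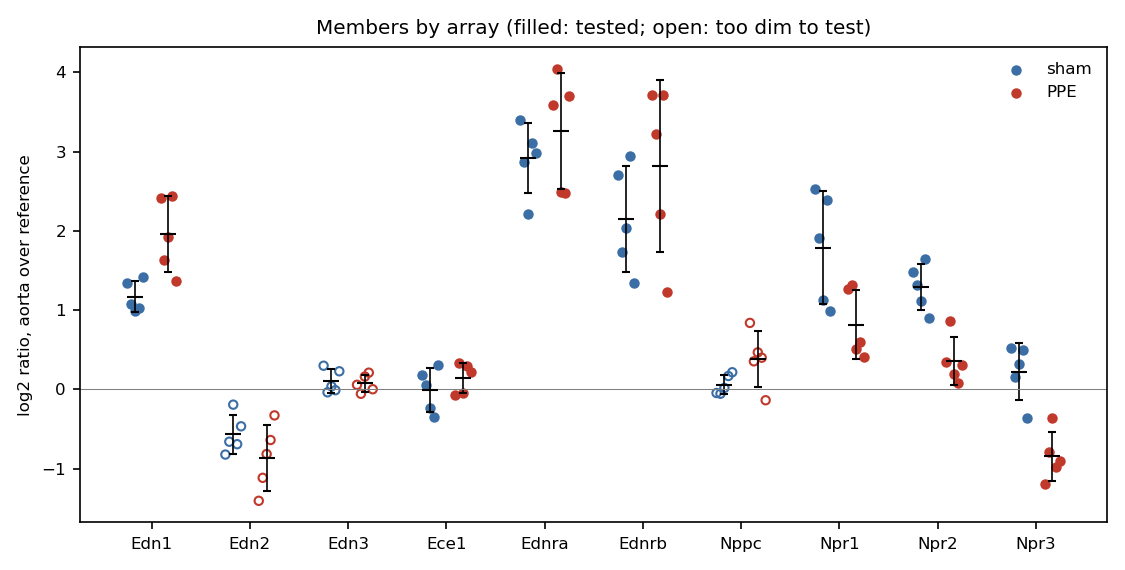
Log2 ratio of aorta over reference (vertical axis) for each of the 10 genes, with 1 point per array, sham in blue and PPE in red; black marks are the mean ± SD of 5 arrays and open points are genes too dim to test. All Npr2 and Npr3 points of PPE lie below those of sham, and the PPE points of Edn1 lie above sham except for PPE 5 at 1.37.

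Among the ligands, Edn1, the main vascular endothelin, was above background on all 10 arrays. Its log2 ratios were 1.35, 1.08, 0.99, 1.03 and 1.42 in sham 1 to 5, and 2.42, 1.64, 1.93, 2.45 and 1.37 in PPE 1 to 5. PPE 5 was the one PPE array within the sham range, and the other 4 lay above every sham array. The means were 1.17 ± 0.20 in sham and 1.96 ± 0.47 in PPE (SD, n = 5 each), a difference of 0.79 (SE 0.21, 95% interval 0.33 to 1.25), or 1.73-fold. In limma the adjusted p was 0.0116, above the threshold of 0.01. Without PPE 5 the difference was 0.94 with an adjusted p of 0.00231 in limma. SAM, the kind of test the study used, was rewritten here, and this version called Edn1 higher with an adjusted p of 0.00194. It also called more names higher over the whole array, 4733 against 3116 in limma. Whether the study's own run called Edn1 was not seen. With the deposited LogRatio it was 0.59 (adjusted p 0.0541 in limma), with the processed red signal 0.65 (0.0773) and with median centring 1.18 (0.197), none of which passed. Over all 26 alternatives the Edn1 difference stayed positive, and 4 of them passed the threshold. The Edn1 probe is printed in 10 spots, whose log2 ratios had an SD between 0.0413 and 0.158 within an array when taken from the deposited ratio.

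The Edn1 difference was 0.68 within slide 1 and 1.15 within slide 2. It was 0.15 between PPE 5 and the mean of sham 4 and sham 5, which share no slide. It was positive in each of these sets, and smallest in the set that holds a single PPE array. The reference channel differed by -0.03 for Edn1 between groups, so the difference lay in the aortic channel, at 0.76 on the log2 scale.

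The other endothelins gave no aortic signal well above background on any of the 10 arrays. The Edn2 ratio, -0.57 ± 0.24 in sham and -0.86 ± 0.42 in PPE (SD, n = 5 each), was set by a reference signal that was above background on every array. Edn3 was not well above background in either channel, with ratios of 0.10 ± 0.15 in sham and 0.08 ± 0.11 in PPE. Neither was tested, and their levels in aorta were not detectable with these probes.

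Ece1, which cleaves the endothelin precursor to its active form, differed little between groups. Its log2 ratios were 0.19, 0.06, -0.23, -0.34 and 0.31 in sham and -0.07, 0.33, -0.05, 0.30 and 0.22 in PPE. The groups overlapped widely. The difference of 0.15 (SE 0.15) had a 95% interval from -0.18 to 0.48 and an adjusted p of 0.498 in limma, so changes inside that interval cannot be told from none.

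For Ednra, the ratio and the aortic channel alone gave different calls. Its log2 ratios were 3.41, 2.88, 2.22, 3.10 and 2.99 in sham 1 to 5, and 3.59, 4.05, 2.50, 2.48 and 3.71 in PPE 1 to 5. PPE 1, 2 and 5 lay above all sham arrays, and PPE 3 and 4, both on slide 2, lay among them. The means of 2.92 ± 0.44 and 3.26 ± 0.73 (SD, n = 5 each) differed by 0.34 (SE 0.33, 95% interval -0.38 to 1.07), with an adjusted p of 0.469 in limma. It ran from 0.15 without PPE 2 to 0.54 without PPE 4, was 0.17 without sham 3 and 0.54 without PPE 3, and was 0.13 with slide as a fixed block.

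The green signal of the Ednra spot, which reads the reference RNA common to all arrays, was not level. Net of local background it ran from 283 to 516 scanner units in sham, and was 901, 443, 1219, 1061 and 375 in PPE 1 to 5. PPE 1, 3 and 4 were thus above every sham array in a channel that holds no aortic RNA. The difference in this channel was 0.79 on the log2 scale, with an adjusted p of 0.395 in limma, and was matched or passed by 217 of 22520 tested names (0.964%), where the median absolute difference was 0.0707. In the red channel alone, Ednra was higher in PPE by 1.13 (SE 0.19, adjusted p 0.000648 in limma after loess and Aquantile), and by 1.03 with the processed red signal (adjusted p 0.000203). With the deposited ratio of the processed channels the difference was -0.02 (adjusted p 0.973 in limma), which cannot be told from none. The size and the call of Ednra therefore changed with the values used. By construction, the ratio difference of 0.34 is the red one of 1.13 less the green one of 0.79. Why the green signal differed was not tested.

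**Figure D2:**
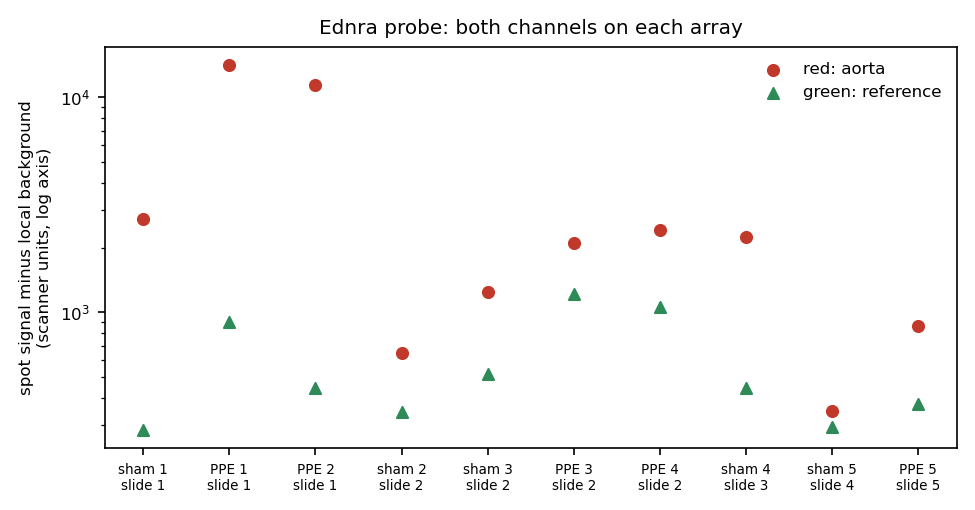
Spot signal minus local background for the Ednra probe (vertical log axis, scanner units) on each array, ordered by slide; red points are the aorta and green triangles the reference RNA. The green signal of PPE 1, PPE 3 and PPE 4 is 901, 1219 and 1061 units, above the highest sham value of 516.

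Ednrb varied more between arrays than between groups. Its brighter probe gave 2.71, 1.74, 2.04, 2.95 and 1.34 in sham and 3.72, 3.22, 2.21, 3.71 and 1.22 in PPE. The lowest value of each group was its replicate 5, and PPE 5 was the lowest of all. The difference was 0.66 (SE 0.48, 95% interval -0.40 to 1.73, adjusted p 0.331 in limma). It was 1.06 without PPE 5 (adjusted p 0.0509 in limma), 0.44 without PPE 1 and 0.18 with the deposited LogRatio, and passed in none of these. The other probe had means of 1.13 ± 0.55 and 1.46 ± 0.65 (SD, n = 5 each), a difference of 0.32 in the same direction. The brighter probe gave 0.76 within slide 1 and 1.08 within slide 2. It gave -0.92 for PPE 5 against sham 4 and sham 5, which share no slide.

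Sham 5 and PPE 5, which give the lowest Ednrb ratios, also had the lowest shares of red spots well above background, 37.6% and 45.8%, against up to 65.8% on PPE 1. Whether that lower signal had a part in the values of Edn1 and Ednrb on PPE 5 was not tested.

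On the natriuretic side, Nppc, the precursor of the C-type peptide that endothelium releases to act on nearby smooth muscle, was near the detection limit. The scanner marked its aortic signal as well above background on 0 of 5 sham and 4 of 5 PPE arrays, 1 array short of the 5 required for testing. PPE 5 was the PPE array without signal. The ratios were 0.06 ± 0.12 in sham and 0.39 ± 0.35 in PPE (SD, n = 5 each). The mean aortic Nppc signal of the PPE arrays was 1.11-fold the detection limit of the sham arrays, taken from the dimmest probes marked as above background. That mean includes PPE 5, which gave no signal, so the value is not a strict lower bound. No test is attached to it.

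Npr1, the receptor for the atrial and brain natriuretic peptides, gave 2.53, 1.91, 1.13, 2.40 and 0.99 in sham and 1.26, 1.32, 0.51, 0.59 and 0.41 in PPE. Sham 3 and sham 5 lay within the range of the PPE arrays, and the other sham arrays lay above it. The means were 1.79 ± 0.71 and 0.82 ± 0.44 (SD, n = 5 each), a difference of -0.97 (SE 0.32, 95% interval -1.68 to -0.26). The adjusted p was 0.0354 in limma, which does not pass. The size moved with the values used: it was -1.68 with the deposited LogRatio (adjusted p 0.0532 in limma) and -2.47 with the processed red signal (6.40e-05). It was -1.11 with a normexp offset of 10 (adjusted p 0.0770 in limma) and -1.07 without background correction (0.0508). The part of dim signal in this was not tested. Red signal was above background on 5 sham and 3 PPE arrays and the reference on 1 of 10, so this gene was tested mainly on its sham signal. The difference was -1.24 within slide 1 and -0.96 within slide 2. It was -1.29 for PPE 5 against sham 4 and sham 5, which share no slide. With slide as a fixed block the difference was -1.07 and passed, with an adjusted p of 0.00379 in limma.

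Npr2, the cyclase receptor of the C-type peptide, fell by 0.93 on the log2 scale (SE 0.18, adjusted p 0.00158 in limma). Its log2 ratios were 1.48, 1.32, 1.12, 1.64 and 0.91 in sham 1 to 5. They were 0.34, 0.87, 0.20, 0.08 and 0.31 in PPE 1 to 5. Every PPE array lay below every sham array, with PPE 2 closest to them. The means were 1.30 ± 0.29 and 0.36 ± 0.30 (SD, n = 5 each). The difference was -0.88 within slide 1 and -1.08 within slide 2. It was -0.96 for PPE 5 against sham 4 and sham 5, which share no slide.

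Npr3, the clearance receptor, fell by 1.07 on the log2 scale (SE 0.19, adjusted p 0.00121 in limma). Its log2 ratios were 0.52, 0.15, 0.32, 0.50 and -0.36 in sham and -1.20, -0.79, -0.36, -0.98 and -0.90 in PPE. The groups were parted by a gap of less than the printed decimals, between sham 5 and PPE 3, while the other arrays lay well apart. The means were 0.23 ± 0.36 and -0.84 ± 0.31 (SD, n = 5 each). The difference was -1.51 within slide 1 and -0.91 within slide 2. It was -0.97 for PPE 5 against sham 4 and sham 5, which share no slide.

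The calls of Npr2 and Npr3 held without any single array, with adjusted p-values up to 0.00555 and 0.00444 in limma. They were lost when the arrays were centred on the median in place of loess, where the differences were -0.25 (adjusted p 0.838 in limma) and -0.57 (0.490). Under that centring the median difference of all tested names was 0.41, against 0.02 in the main analysis. Relative to the median of 0.41, Npr2 differed by -0.66 and Npr3 by -0.98.

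**Figure D3:**
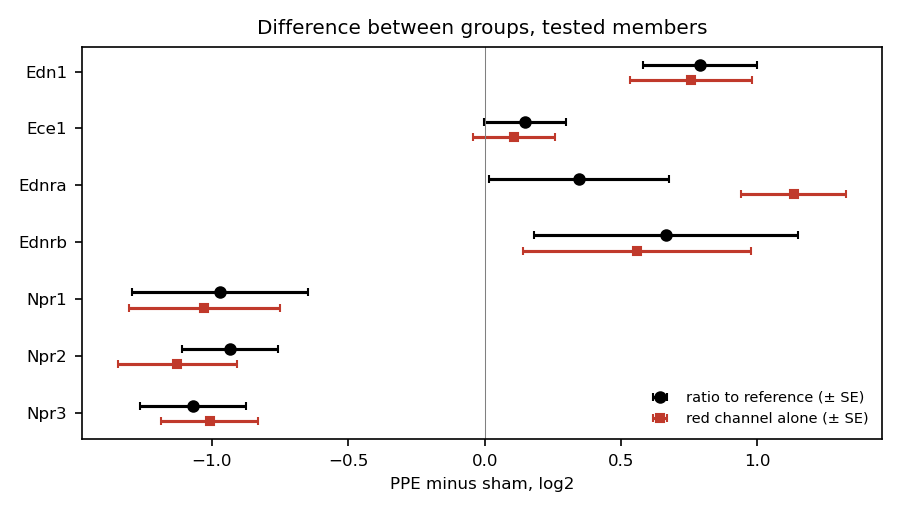
Difference between PPE and sham on the log2 scale (horizontal axis) for the 7 tested genes; black circles are ratios to the reference and red squares the red channel alone after loess and Aquantile, each with its SE. The symbols lie close for every gene except Ednra, at 0.34 for the ratio and 1.13 for the red channel.

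Whether pairs of ligand and receptor, or of receptors, changed unequally was tested on the difference of their log2 ratios within each array. Of 9 pairs planned, 7 were run, since Nppc was too dim for the others, and none passed an adjusted p of 0.05 in exact two-sided permutation tests over all relabellings of the arrays. With 5 arrays a group and 7 pairs, the smallest adjusted p that a pair can reach alone in this exact test is 0.0556, so a single unequal pair could not have passed. Edn1 against Ece1 came closest, with a change in their difference of 0.64 (95% interval -0.01 to 1.23, p = 0.0635, adjusted p = 0.444 in the exact permutation test). For Ednra against Ednrb the value was -0.32 with an interval from -1.85 to 1.23, which leaves room for sizeable unequal change either way.

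Among the natriuretic receptors, the change in their difference was -0.04 for Npr1 against Npr2 (95% interval -0.61 to 0.50), -0.10 for Npr3 against Npr1 (-0.94 to 0.74) and -0.14 for Npr3 against Npr2 (-0.61 to 0.40), each with an adjusted p of 0.873 in the exact permutation test. Edn1 against its receptors gave 0.44 for Ednra (-0.76 to 1.63) and 0.13 for Ednrb (-0.99 to 1.22), with the same adjusted p. Intervals of this width do not show that any pair moved alike. Npr1 against Npr2 moved most with the values used: it was -0.62 with the deposited LogRatio and -1.27 with the processed red signal, where the adjusted p of 0.0556 in the exact permutation test is the smallest a lone pair can have.

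Markers of several cell types moved between the groups, where 13.8% of all tested names were called higher and 9.96% lower. Of 12 smooth muscle markers, 10 were lower in PPE, and their mean log2 ratio was 3.06 to 4.29 in sham and 1.60 to 2.65 in PPE. Of 10 macrophage markers, 6 were higher, with a mean of 1.04 to 1.61 in sham and 2.74 to 3.87 in PPE. Of 8 fibroblast markers, 4 were higher, with a mean of 2.99 to 3.53 and 3.56 to 4.65. No endothelial marker of 12 was called, with a mean of 2.48 to 3.55 and 2.61 to 3.72. One adipocyte marker of 8 was lower and 1 Schwann cell marker of 7 higher, and of 6 skeletal muscle markers tested none was called. In whole aorta, fewer cells of a type and less RNA per cell cannot be told apart.

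Npr2 and Npr3 fell beside the smooth muscle markers, with no called fall of Ednra. The Ednra ratio minus the smooth muscle mean was -1.15 to -0.55 in sham and 0.86 to 1.98 in PPE, as read through the ratio to the reference. For Npr2 the same quantity was -2.80 to -1.94 in sham and -1.78 to -1.40 in PPE, and for Npr3 it was -3.89 to -2.74 and -3.44 to -1.97. It was -2.54 to -1.56 and -1.34 to -0.52 for Npr1. The sham and PPE ranges overlapped for Npr3 and were apart for the other receptors named here, with the PPE values higher. The smooth muscle mean itself did not overlap between groups, so subtracting it also sets apart a gene that changes little. For Edn1, the value minus the endothelial mean was -2.21 to -1.36 in sham and -2.08 to -0.16 in PPE, and these ranges overlapped. Minus the macrophage mean, Edn1 was -0.57 to -0.05 in sham and -1.80 to -0.63 in PPE, which lay apart. The macrophage mean did not overlap between groups either, so the same limit holds there. Minus the adipocyte mean, Npr1 was -3.87 to -2.77 and -3.92 to -3.14, and Npr3 was -5.22 to -4.27 and -6.02 to -4.11, both with overlap. For Ednrb the ranges overlapped too, at -1.44 to -0.10 and -1.92 to 1.10 minus the endothelial mean and -0.09 to 0.49 and -0.43 to 1.47 minus the Schwann cell mean. The part of cell makeup in these values was not tested.

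**Figure D4:**
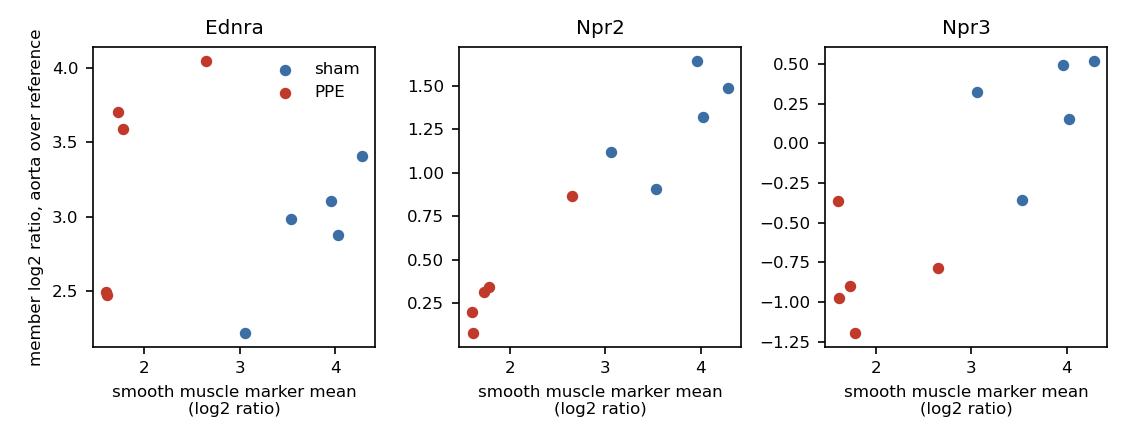
Log2 ratio of Ednra, Npr2 and Npr3 (vertical axes) against the mean log2 ratio of 12 smooth muscle markers (horizontal axes), with 1 point per array, sham in blue and PPE in red. The smooth muscle mean is 1.60 to 2.65 in PPE and 3.06 to 4.29 in sham; the PPE points lie low on both axes for Npr2 and Npr3, and low on the horizontal axis alone for Ednra.

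Of 60 other genes of the pathways, in 3 lists, 54 were tested, with 8 called higher and 13 lower in PPE and a median difference of -0.27. These are 14.8% and 24.1% of the tested genes, beside 13.8% and 9.96% of all tested names. In the red channel alone the split was 5 higher and 15 lower after loess and Aquantile, and 7 and 22 with the processed signal. With median centring it was 1 and 0, Arrb2 being the gene still called. The lists hold peptides and peptidases, the coupling of endothelin receptors, and the cyclic GMP arm through which the natriuretic receptors act.

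Among 12 tested peptides and peptidases, 3 rose and 1 fell, with a median of 0.01, beside 13.8% and 9.96% of all tested names. Ece2, a homologue of Ece1, rose by 1.10 (range -2.09 to -1.84 in sham and -1.29 to -0.47 in PPE). Its ratios were below 0 on all arrays. Furin, the proprotein convertase that makes the first cut in the endothelin precursor, rose by 0.76 and Ctsa, a lysosomal carboxypeptidase that can degrade endothelin, by 0.69. The calls of Furin and Ctsa were lost in the red channel alone, that of Furin also with slide as a fixed block (0.60, adjusted p 0.0130 in limma), and that of Ece2 when its tested probes were averaged (0.51, adjusted p 0.0110 in limma). Pcsk6, a proprotein convertase, fell by 1.51 on the log2 scale (1.57 to 2.27 in sham and -0.17 to 0.70 in PPE). Mme, neprilysin, which degrades both peptide families, differed by -1.15 with an adjusted p of 0.0309 in limma, above the threshold. It passed with slide as a fixed block (-1.18, adjusted p 0.00125 in limma) and without sham 5 (-1.41, 0.00764), and was -2.70 with the processed red signal. Nppa, the atrial peptide, differed by -0.57 (adjusted p 0.296 in limma), and rested on 1 array, sham 5 at 2.48 against 0.39 for the next sham array. Nppb, the brain peptide, and Corin, the protease that activates the atrial peptide precursor, were above background on 3 and 1 of 10 arrays and were not tested.

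Among 28 genes of endothelin receptor coupling, 4 rose and 6 fell, with a median of -0.23. The share that rose was close to the 13.8% called higher over all tested names, where 9.96% were called lower. Plcb4, a phospholipase C beta, fell by 2.31 on the log2 scale, Itpr1, the calcium release channel opened by inositol trisphosphate, fell by 1.45, and the G protein subunit Gna11 fell by 0.94. Rock1, a kinase that acts on myosin phosphatase, fell by 1.41, Arhgef12 fell by 1.22 and Rock2 fell by 0.64, while Gna13 rose by 1.07 and Arhgef1 by 0.57. With its tested probes averaged, Gna13 rose by 0.67 (adjusted p 0.00503 in limma). The call of Arhgef1 was lost without sham 1, where its difference was 0.54, with slide as a fixed block (0.52, adjusted p 0.0247 in limma), with the deposited LogRatio (0.52, 0.0112) and in the red channel alone. Arrb2, an arrestin that ends receptor signalling, rose by 2.60, from -1.48 to -0.84 in sham to 1.10 to 1.60 in PPE. Adrbk1, the receptor kinase also named Grk2, rose by 1.09.

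Among 14 tested genes of the cyclic GMP arm, 1 rose and 6 fell, with a median of -0.72, beside 13.8% and 9.96% of all tested names. Ppp1r12a, the targeting subunit of myosin phosphatase, fell by 2.10 on the log2 scale, from 2.39 to 3.35 in sham to 0.48 to 1.26 in PPE. With its tested probes averaged, the fall was 1.56. Mrvi1, a substrate of cyclic GMP-dependent kinase on the calcium store, fell by 1.53, Prkg1, that kinase, fell by 1.01, and Kcnmb1, a subunit of a calcium-activated potassium channel, fell by 1.38, with overlapping groups for Prkg1 and Kcnmb1. In the red channel alone the difference of Mrvi1 was -2.86 after loess and Aquantile and -2.98 with the processed signal, so for this gene too the ratio and the aortic channel differed. Among the phosphodiesterases, Pde5a and Pde3b fell by 1.52 and 1.18, and Pde1b rose by 1.47. Their groups did not overlap, which the rule for naming them required. With its tested probes averaged, Pde5a fell by 1.10. The others tested did not pass: Pde2a, Pde9a and Pde1a differed by 1.09, 0.61 and 0.35, and Pde3a by -0.86. The macrophage and smooth muscle values above move with the same groups, and their part in these lists was not tested.

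**Figure D5:**
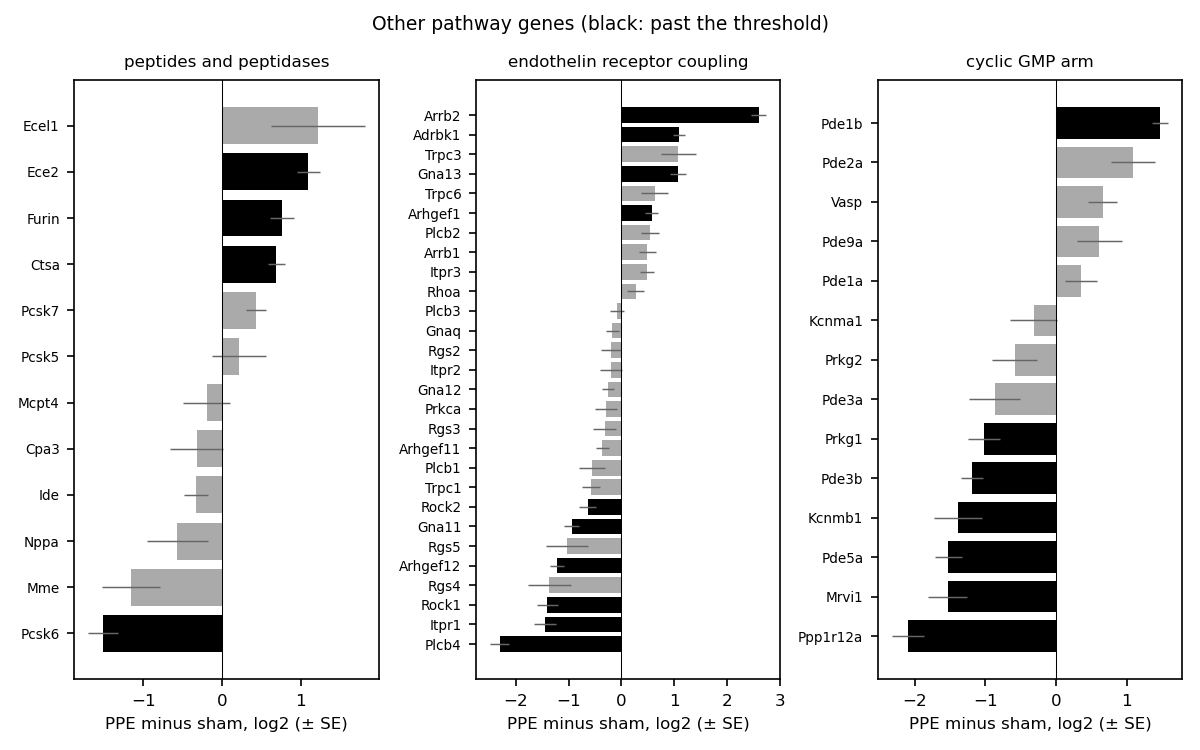
Difference between PPE and sham on the log2 scale (horizontal axes, ± SE) for the 54 tested genes of 3 pathway lists; black bars passed an adjusted p of 0.01 in limma and grey bars did not. In the cyclic GMP arm 6 of the 7 black bars point to lower values in PPE, and in endothelin receptor coupling black bars lie on both sides, 4 higher and 6 lower.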

How the data were processed

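Aortic gene expression was measured on 2-colour Agilent mouse arrays, 5 sham and 5 PPE, with the aorta in red and a universal mouse reference in green and no dye swap. Spots were read by the authors in Agilent Feature Extraction, version 10.7.3.1. By the study's methods, some arrays were excluded for poor hybridization or as outliers in clustering, and which ones is not stated. Signals and backgrounds of spots were deposited as linear intensity values and the LogRatio as log10 of red over green, and the authors' series matrix holds log2 ratios. The latter equalled the ratio of processed signals on 100% of spots within 1e-04. No spot was saturated.

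Values were computed in R 4.3.3 with limma 3.58.1: normexp background correction (offset 50) on mean signal and median local background, loess within arrays, and the mean over spots of 1 probe, without control spots and the 176 to 331 outlier spots per array. The offset draws dim probes towards 0. A probe was tested if at least 5 of 10 arrays had red signal well above background, and a gene was represented by its brightest tested probe. Groups and replicate numbers came from the sample labels. Groups were compared with limma (two-sided, Benjamini-Hochberg over 22520 names, threshold 0.01, after the false discovery rate of 1% of the study). SAM was rewritten and run with 100 drawn relabellings. Pairs of members were compared by exact permutation. Red-channel values and scan day as a block were added after seeing the data. The script was tested on simulated data.

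The members, the lists and the tests were chosen with earlier results of these data known. Named genes were all 10 members with every probe, the pathway genes past the threshold with non-overlapping groups (at most 6 in each direction per list), and Nppa, Nppb, Mme and Corin. Rock2, Prkg1 and Kcnmb1, called with overlapping groups, were named after their values were seen. The other tested phosphodiesterases, Pde2a, Pde9a, Pde1a and Pde3a, did not pass and were named outside that rule. Alternatives covered background correction, normalization, values, filters, probes, blocks and each array left out. The number of arrays limits the precision. RefSeq (GRCm38.p6) was used for names only.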

Additional observations from a re-analysis of the deposited data

Results flagged for a closer look

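The reference channel of Ednra, which no comparison between groups uses by itself, was 0.79 higher in PPE than in sham on the log2 scale, although the same reference RNA was put on all arrays.

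In groups of 5 arrays, 5 of the 76 groups tested held an array whose gap to the next exceeded Dixon's critical value of 0.710 times the range of the group, and chance gives about 5%. Nppa was at 2.48 in sham 5 (next 0.39) and at 0.44 in PPE 5 (next 0.11). Adrbk1 was at -0.26 in sham 4 (next -0.06). Rock1 was at -0.26 in PPE 5 (next 0.33), and Furin at 1.69 in PPE 5 (next 1.22). None of the 10 members of the system held such an array.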

How the results depend on the processing

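Of 26 alternatives, 25 kept the calls of Npr2 and Npr3. Members called higher, 0 in the main analysis, numbered 1 in both red-channel settings (Ednra), and with the filter on all arrays, slide as a random block and SAM (Edn1). Leaving out 1 array gave 0 to 1 higher (1 without PPE 5) and 2 to 2 lower. Median centring gave 0 members lower. Of the other pathway genes, 8 were called higher at first, against 1 with median centring, 5 in the red channel after loess and Aquantile, 13 with slide as a random block and 15 with SAM, and 8 to 11 with 1 array left out. The 13 called lower became 0 with median centring and 22 with the processed red signal, and 10 to 16 with 1 array left out. Over all names SAM called 4733 higher and 3498 lower.

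Whether the replicate numbers pair the samples was not settled. Deviations correlated over 0.1 in 3 of 5 same-numbered pairs, and 1 of 5 sham arrays correlated best with its own number. The median correlation was 0.16 for same-numbered pairs and -0.15 for the others. With the replicate block, 0 members were called higher and 3 lower, Npr1 being added (adjusted p 0.00659 in limma), with 11 other pathway genes higher and 15 lower. Npr1 also passed with slide as a random block, scan day as a block, SAM and the processed red signal.

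Ednra differed by -0.0201 with the LogRatio and with the series matrix. No pair passed under any alternative, where a lone pair cannot go below 0.0556 in the exact test, and signs changed as follows. Npr3 against Npr1 gave 0.0436 with median centring, 0.18 with the LogRatio and the series matrix, and 0.0198 and 0.99 in the red-channel settings. Red-channel values were 0.57 and 0.85 for Ednra against Ednrb and -0.38 in both settings for Edn1 against Ednra. After loess and Aquantile they were 0.10 for Npr1 against Npr2 and 0.12 for Npr3 against Npr2, while with the processed red signal Npr1 against Npr2 was -1.27. With 1 array left out, the ranges were -0.83 to 0.10 for Ednra against Ednrb, -0.13 to 0.39 for Edn1 against Ednrb, -0.16 to 0.10 for Npr1 against Npr2 and -0.30 to 0.10 for Npr3 against Npr1. The causes were not tested. Exact sign-flip and within-slide permutation tests of pairs cannot reach the threshold either and gave values alone.

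Dim signal limits Edn2, Edn3, Nppc and Npr1, and 1 probe per gene limits what is said of transcripts.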
